A study of Homo sapiens with 6 samples.

Results

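The genes described here make and load the MHC class I molecules of the cell surface: the heavy chains HLA-B, HLA-C, HLA-E and HLA-F, the light chain B2M, the peptide transporter subunits TAP1 and TAP2, the loading chaperone TAPBP (tapasin) and the transcriptional regulator NLRC5. They were picked by function from a series already analysed. Every probe set annotated to exactly 1 of these symbols was taken, which gave 25 probe sets for 9 of the 19775 genes that had such a probe set. The series holds 6 Affymetrix arrays, all of RNA from SNU-449, an established human hepatocellular carcinoma cell line. The control group is 3 arrays of cells given an empty vector, with the genotype label Ctrl. The other group is 3 arrays with the label USP48 OE, for overexpression of the ubiquitin-specific protease USP48. All 6 samples carry 1 treatment text, which describes a USP48 lentivirus followed by puromycin selection and does not say how the empty vector was delivered, while the titles call both groups transfected. Whether the selected cells were 1 clone or a pool is not stated. Nor is it stated that arrays of a group are separate cultures, and the p-values below cover only the variation among these arrays, which may be technical.

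Values are log2 signals as deposited. They were comparable in scale between arrays, whose medians lay between 3.74 and 3.79. None of the 5 USP48 probe sets passed the test as higher in the USP48-labelled arrays and 2 passed as lower, with log2 differences from -0.82 to 0.24. Groups are therefore called by their labels. USP48-labelled replicate 3 stood apart in RNA quality, with a 5′ minus 3′ GAPDH signal of -1.31 against -0.51 to -0.32 in the other arrays. The means of the 18 hybridization control probe sets, which read labelled RNAs added before hybridization, were 9.75 to 9.83 in the empty vector arrays and 10.02 to 10.21 in the USP48-labelled arrays. Setting them equal lowers every log2 difference by 0.29. Of 7 measured hepatocyte markers, 5 had both group means below the median of every array, among them ALB at 2.07 and 2.14. In the empty vector arrays the epithelial markers KRT8, KRT18, EPCAM and CDH1 were at 10.88, 11.79, 6.69 and 2.95. CDH1 was below the median of every array in both groups. The mesenchymal markers VIM and CDH2 were at 11.57 and 8.14 in the empty vector arrays.

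In antigen presentation by class I, peptides cut by the proteasome are pumped into the endoplasmic reticulum by the TAP1 and TAP2 heterodimer. There, tapasin holds empty heavy chains, each paired with B2M, at the transporter until a peptide is bound. The loaded complex then travels to the surface, where HLA-B and HLA-C are read by T cells and HLA-E and HLA-C by inhibitory receptors of natural killer cells. Transcription of many of these genes is known to respond to interferons, NF-κB or both, through sites in the upstream promoter. Several also respond to NLRC5, which acts at a module of X and Y boxes closer to the start.

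In the USP48-labelled arrays, 20 of the 25 probe sets rose, 0 fell and 5 did not pass the test (limma, adjusted p under 0.05 over 54613 probe sets). Over the whole array 10.6% of probe sets were called higher and 13.8% lower. At an unadjusted p under 0.05, 1 of the 25 probe sets was lower. In all 20 the USP48-labelled arrays lay above every empty vector array, in 1 they lay below, and in 4 the groups overlapped. Over all probe sets, the groups separated upward in 18.8% and downward in 19.4%. The median log2 difference was 0.78 over the 25 probe sets and 0.03 over all probe sets. With each gene represented by its brightest probe set, 8 of 9 genes rose and 0 fell, against 14.0% and 13.2% of all genes, and 1 of the 9 was lower at an unadjusted p under 0.05. At 2-fold or more 3 of the 25 were called higher, against 1.24% of all probe sets. By suffix, 11 of 11 probe sets ending in x_at rose, all of them of HLA genes, and 9 of the 14 others. Probes of the 11 can also match other transcripts, so these probe sets may share signal and are not separate observations. In RNA from whole cultures, more expressing cells and more RNA per cell cannot be told apart.

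**Figure D1:**
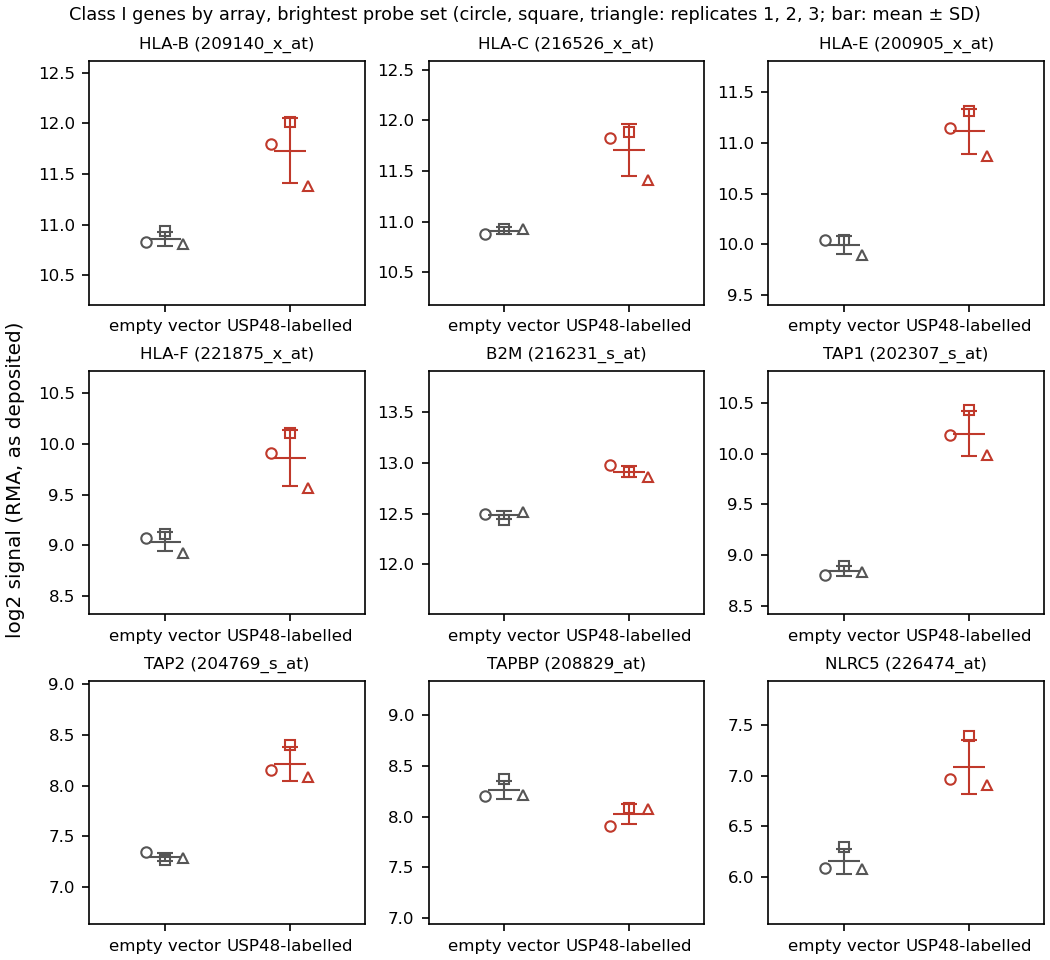
Log2 signal of the brightest probe set of each of the 9 genes in every array, with the mean and SD of each group (n = 3). The USP48-labelled arrays lie above the empty vector arrays in 8 panels and below them in that of TAPBP, and replicate 3 (triangle) is the lowest USP48-labelled array for HLA-B, HLA-C, HLA-E, HLA-F, B2M, TAP1, TAP2 and NLRC5.

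NLRC5, a nuclear regulator that switches on class I genes, had 1 probe set. Its log2 signal was 6.09, 6.30 and 6.07 in the empty vector arrays and 6.96, 7.39 and 6.91 in the USP48-labelled arrays. The groups did not overlap, and the gap between them was larger than the spread within either. The log2 difference was 0.93 (SE 0.13, 1.91-fold, limma adjusted p = 0.00049).

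HLA-E, a class I molecule of low polymorphism that engages the CD94 and NKG2A receptor, rose in 3 of 3 probe sets. Probe set 200905_x_at went from 10.04, 10.04 and 9.90 in the empty vector arrays to 11.15, 11.32 and 10.87 in the USP48-labelled arrays. The log2 difference was 1.12, with SE 0.12 (2.17-fold, limma adjusted p = 7.0e-05), and all 3 USP48-labelled arrays stood clear of the controls. The remaining probe sets moved alike: 217456_x_at by 0.997 and 200904_at by 0.89. The latter, whose name lacks the suffix x_at, read 6.47, 6.59 and 6.38 against 7.39, 7.50 and 7.24. In Affymetrix naming that suffix marks probes that can also match other transcripts, so the signal may include near-identical class I genes.

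HLA-F, a non-classical class I gene, also rose in 3 of 3 probe sets. Its brightest, 221875_x_at, read 9.07, 9.11 and 8.93 in the empty vector arrays and 9.91, 10.11 and 9.56 in the USP48-labelled arrays, which was 0.82 higher on average (SE 0.13, adjusted p = 0.0010 by limma). Probe set 204806_x_at differed by 0.83. The dim probe set 221978_at, the only one of the 3 without the x_at suffix, went from 4.28, 4.10 and 3.70 to 5.07, 5.38 and 4.99, with a difference of 1.12 (limma adjusted p = 0.00034).

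HLA-B and HLA-C, the classical heavy chains measured here, rose in 3 of 3 and 4 of 4 probe sets. For HLA-B, 209140_x_at read 10.83, 10.94 and 10.81 in the empty vector arrays and 11.80, 12.01 and 11.38 in the USP48-labelled arrays, which was 0.87 higher on average (SE 0.14, adjusted p = 0.0012 by limma). For HLA-C, 216526_x_at read 10.88, 10.93 and 10.93 against 11.82, 11.89 and 11.41, 0.79 higher on average (SE 0.13, adjusted p = 0.00089 by limma). In both, the empty vector arrays lay close together while the USP48-labelled arrays spread widely, with SDs of 0.32 for HLA-B and 0.26 for HLA-C. The other HLA-B probe sets differed by 0.80 and 0.78, and the other HLA-C probe sets by 0.62 to 0.68. All 7 probe sets of this pair end in x_at, so each may also read the other gene or related class I genes. After scaling on the hybridization controls, 208729_x_at of HLA-B (0.49, limma adjusted p = 0.067) and 3 HLA-C probe sets, at 0.33 to 0.38 (limma adjusted p = 0.090 to 0.095), no longer passed.

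B2M, the invariant light chain of every class I molecule, rose in 3 of 3 probe sets. Its brightest probe set, 216231_s_at, read 12.50, 12.44 and 12.52 in the empty vector arrays and 12.97, 12.91 and 12.86 in the USP48-labelled arrays. The groups were tight and separate, with a log2 difference of 0.43 (SE 0.09, 1.35-fold, limma adjusted p = 0.0044). This signal was brighter than that of 99.9% of probe sets. The other B2M probe sets differed by 0.40 for 201891_s_at and 0.30 for 232311_at (limma adjusted p = 0.0080 and 0.040). The call of 232311_at was lost when any 1 of the 5 arrays other than USP48-labelled replicate 3 was left out (limma adjusted p = 0.059 to 0.125). Scaling on the hybridization controls ended all 3 calls of B2M, with differences of 0.01 to 0.14.

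TAP1, which forms the peptide channel together with TAP2, had the largest difference of the 25 probe sets. Its 1 probe set read 8.80, 8.89 and 8.83 in the empty vector arrays and 10.18, 10.43 and 9.98 in the USP48-labelled arrays. The log2 difference was 1.36 (SE 0.12, 2.56-fold, limma adjusted p = 1.7e-05), and only 0.60% of all probe sets had a larger one.

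The probe sets of TAP2 were not uniform: 1 of 4 rose. Probe set 204769_s_at went from 7.34, 7.26 and 7.29 to 8.15, 8.40 and 8.09, which was 0.92 higher with no overlap (SE 0.10, adjusted p = 0.00010 by limma). Probe set 225973_at, of similar brightness, read 7.30, 7.28 and 7.17 in the empty vector arrays and 7.25, 7.28 and 7.54 in the USP48-labelled arrays, where only replicate 3 was above the controls. Its difference was 0.11 with a 95% interval from -0.12 to 0.34, which does not reach the interval of 204769_s_at, 0.69 to 1.15. The dimmer probe sets 204770_at and 208428_at were at 0.23 and 0.22, with overlapping groups (limma adjusted p = 0.244 and 0.302). Averaged over its 4 probe sets, TAP2 differed by 0.37 (limma adjusted p over genes = 0.010). Where each probe set lies on the transcripts was not analysed here.

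TAPBP, the tapasin gene, did not move with the others by its brightest probe set. Probe set 208829_at read 8.21, 8.37 and 8.21 in the empty vector arrays and 7.91, 8.09 and 8.08 in the USP48-labelled arrays, which lay just below the controls. The log2 difference was -0.24 (SE 0.10, limma adjusted p = 0.103). The dim probe set 210294_at rose from 4.00, 4.00 and 4.19 to 4.52, 4.55 and 4.44 (0.44, SE 0.09, limma adjusted p = 0.0059), and 1555565_s_at was at 0.21 (limma adjusted p = 0.197). After scaling on the hybridization controls 208829_at was called lower, at -0.53 (limma adjusted p = 0.0018), and 210294_at did not pass (0.15, limma adjusted p = 0.346). Averaged over its 3 probe sets TAPBP was at 0.14 (limma adjusted p over genes = 0.220).

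**Figure D2:**
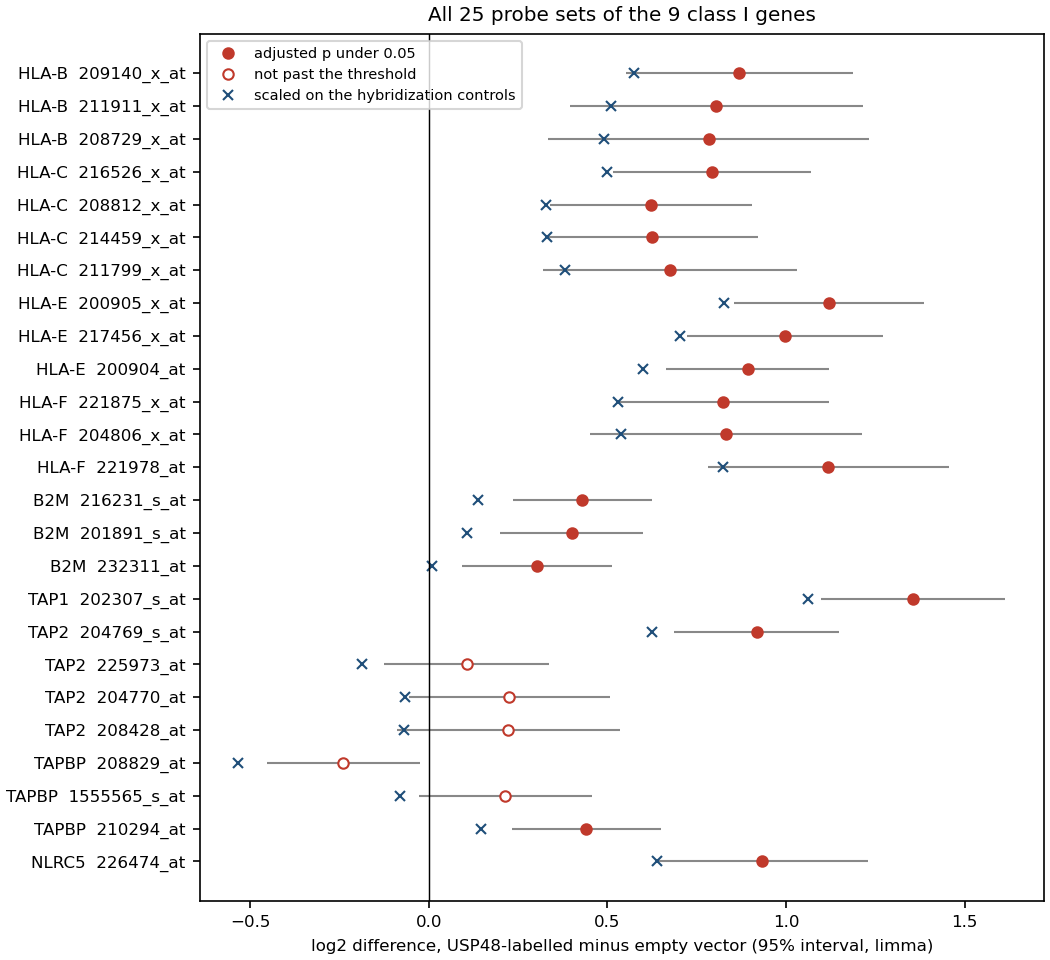
Log2 difference of each of the 25 probe sets, USP48-labelled minus empty vector arrays, with its 95% interval from limma, and the same difference after scaling on the hybridization controls (crosses). The 13 HLA probe sets and those of B2M, TAP1 and NLRC5 lie to the right of 0 as deposited with intervals that leave out 0, while 1 of 4 TAP2 probe sets does so and TAPBP has probe sets on both sides of 0.

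Ordered by the brightest probe set, the log2 differences fell from TAP1 (1.36) through HLA-E (1.12), NLRC5 (0.93), TAP2 (0.92), HLA-B (0.87), HLA-F (0.82) and HLA-C (0.79) to B2M (0.43) and TAPBP (-0.24). The 95% intervals of neighbours in this order overlapped at every step except from B2M (0.24 to 0.62) to TAPBP (-0.45 to -0.03). Across wider steps, the interval of TAP1, from 1.10 to 1.61, lay above those of HLA-C (0.52 to 1.07) and B2M. These differences between genes were not tested, and an array gives no comparison of level between probe sets.

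Most probe sets ranked the USP48-labelled arrays alike. Replicate 3 was the lowest of the 3 in 20 of all 25 probe sets, against 33.9% of probe sets over the array, and in 19 of the 20 that rose, against 38.9% of all probe sets called higher. Replicate 2 was the highest in 22 of 25 and in 18 of the 20 that rose, against 38.1% of all called higher. Exceptions were the brighter B2M probe sets, 216231_s_at and 201891_s_at, with replicate 1 highest, TAPBP 208829_at and 3 TAP2 probe sets with replicate 1 lowest, and TAP2 225973_at with replicate 3 highest. The mean of the 9 genes, each centred on its own mean, was -0.43 to -0.34 in the empty vector arrays and 0.39, 0.58 and 0.20 in USP48-labelled replicates 1, 2 and 3. Replicate 3 is also the array with the low 5′ GAPDH signal, and its part in these values was not tested. Without it the same number of probe sets, 20, rose, with a median of 0.94 over all 25. Without replicate 2 the median was 0.55 and 19 rose.

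Scaling on the hybridization controls left 12 of the 25 probe sets higher and 1 lower, where 3.34% of all probe sets were called higher and 39.0% lower. The median of the 25 was then 0.49 and that of all probe sets -0.26. TAP1, NLRC5, all 3 probe sets each of HLA-E and HLA-F, 2 of HLA-B, 1 of HLA-C and 204769_s_at of TAP2 were the 12. By the brightest probe set 7 of 9 genes remained called, and B2M was not among them. HLA-C was among the 7 through 216526_x_at (0.50, limma adjusted p = 0.016), its brightest over all arrays. In the empty vector arrays alone 208812_x_at was brighter, with a mean of 10.93 against 10.91. Probe set 208812_x_at differed by 0.62 as deposited and did not pass after this scaling (0.33, limma adjusted p = 0.092). The call of HLA-C therefore depended on which probe set was read.

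Promoter windows of RefSeq (GRCh38.p14, 250 bases before and 50 after the start of the gene) were matched for 7 of the 9 genes, all but HLA-E and NLRC5. The 200 bases before the start are shown, 5′ to 3′ on the strand of the gene, because most of these genes moved together and this stretch holds the known class I elements. Capitals mark matches to 4 motifs, searched on both strands: an ISRE-like motif (GAAA repeated after 2 free bases, a core bound by interferon-regulated factors), the NF-κB consensus, the CCAAT box (CCAAT, also the core of the Y box) and the CRE half-site (TGACG, also found in the X2 box). The windows are chr6:31357180-31357379 (minus strand) for HLA-B, chr6:31272093-31272292 (minus strand) for HLA-C and chr6:29723234-29723433 (plus strand) for HLA-F on chromosome 6.
HLA-B: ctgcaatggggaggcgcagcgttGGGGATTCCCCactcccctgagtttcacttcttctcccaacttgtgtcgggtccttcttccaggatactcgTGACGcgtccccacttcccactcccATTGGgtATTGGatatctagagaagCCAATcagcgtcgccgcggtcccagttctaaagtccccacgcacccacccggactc
HLA-C: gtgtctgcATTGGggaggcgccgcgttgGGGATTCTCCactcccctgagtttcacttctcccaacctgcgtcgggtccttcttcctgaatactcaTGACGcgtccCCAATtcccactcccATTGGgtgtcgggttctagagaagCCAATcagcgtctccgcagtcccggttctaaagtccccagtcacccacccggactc
HLA-F: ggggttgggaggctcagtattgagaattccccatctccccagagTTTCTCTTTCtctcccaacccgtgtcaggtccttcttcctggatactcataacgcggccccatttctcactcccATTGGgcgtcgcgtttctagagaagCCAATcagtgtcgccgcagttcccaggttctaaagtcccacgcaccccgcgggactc

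The HLA-B and HLA-C sequences were 87.7% identical over a global alignment of these 200 bases, and HLA-F was 80.8% identical to HLA-B and 78.7% to HLA-C. Counted back from the first base of the gene, HLA-B has NF-κB matches that overlap, starting at -177 and -176, a TGACG at -106 and CCAAT boxes at -81, -74 and -56. HLA-C has an NF-κB match at -172, a TGACG at -105 and CCAAT boxes at -192, -95, -80 and -56. HLA-F has CCAAT boxes at -82 and -57, has no TGACG, and has an ISRE-like match at -156 to -147 where HLA-B and HLA-C have none. No match says only that these letters are absent from the window.

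For the light chain and the loading genes the windows are chr15:44711317-44711516 (plus strand) for B2M on chromosome 15, and chr6:32853705-32853904 (minus strand) for TAP1, chr6:32838740-32838939 (minus strand) for TAP2 and chr6:33314079-33314278 (minus strand) for TAPBP on chromosome 6.
B2M: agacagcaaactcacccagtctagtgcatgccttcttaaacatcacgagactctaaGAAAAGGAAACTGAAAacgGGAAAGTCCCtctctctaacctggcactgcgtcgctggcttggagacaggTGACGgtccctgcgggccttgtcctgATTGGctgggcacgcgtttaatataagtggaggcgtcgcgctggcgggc
TAP1: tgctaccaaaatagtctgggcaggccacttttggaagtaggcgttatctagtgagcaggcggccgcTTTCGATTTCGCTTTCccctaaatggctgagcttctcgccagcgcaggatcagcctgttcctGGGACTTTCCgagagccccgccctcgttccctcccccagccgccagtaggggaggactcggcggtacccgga
TAP2: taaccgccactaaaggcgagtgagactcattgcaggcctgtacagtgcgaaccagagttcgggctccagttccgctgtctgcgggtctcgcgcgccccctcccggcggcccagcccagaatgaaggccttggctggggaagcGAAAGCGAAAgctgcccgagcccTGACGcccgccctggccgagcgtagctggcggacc
TAPBP: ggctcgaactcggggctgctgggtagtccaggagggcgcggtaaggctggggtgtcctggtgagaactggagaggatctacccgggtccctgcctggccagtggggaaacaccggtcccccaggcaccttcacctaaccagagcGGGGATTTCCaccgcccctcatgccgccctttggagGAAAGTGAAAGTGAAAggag

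B2M, TAP1 and TAPBP each have a pair of overlapping ISRE-like matches, and TAP2 has 1. An NF-κB match is also present in B2M, TAP1 and TAPBP, and the CCAAT box of TAP1, at -249, and its second NF-κB match, at 23, fall outside the printed stretch. ISRE-like matches were present in 5 of the 7 windows and in 3.57% of 35116 RefSeq windows of the same 300 bases. NF-κB matches were present in 5 of 7 and 11.3%, CCAAT boxes in 5 of 7 and 34.6%, and the CRE half-site in 4 of 7 and 24.6%. A match is a description of the letters, and binding was not measured. TAPBP, whose brightest probe set did not pass, has its overlapping pair at -20 to -5 on the strand of the gene. TAP1, the gene with the largest difference, has its pair at -134 to -119 on the opposite strand, and the letters of the pairs differ. Strand did not sort the genes that rose by their brightest probe sets. B2M has its pair at -144 to -129 and TAP2 its match at -58 to -49 on the strand of the gene. HLA-F has its match on the opposite strand. Whether place or strand matters was not tested.

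**Figure D3:**
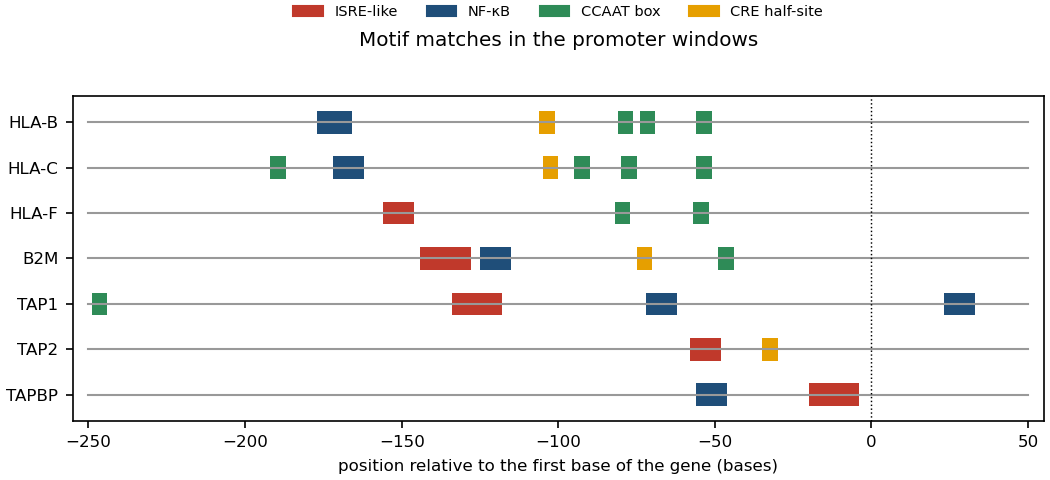
Positions of the motif matches in the 300-base promoter windows of the 7 genes whose window was matched, in bases from the first base of the gene, with bars the length of the match (overlapping matches merge). ISRE-like matches lie in HLA-F, B2M, TAP1, TAP2 and TAPBP, and HLA-B, HLA-C and HLA-F each have CCAAT boxes within 2 bases of -80 and within 1 base of -56, beside others that HLA-F lacks.

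Other genes of the class I pathway were read from 6 lists, by their brightest probe sets. Listed genes with no probe set naming them alone were not analysed here. The counts below stand against 14.0% higher and 13.2% lower over all genes. Among the genes of the immunoproteasome, its assembly and the proteasome activators, 5 of 6 rose and 0 fell (0 also at an unadjusted p under 0.05). Their median log2 difference was 0.52 against 0.05 over all genes. The catalytic subunits of the immunoproteasome led the list: PSMB9 at 0.87, PSMB10 at 0.66 and PSMB8 at 0.55 (limma adjusted p = 0.00061, 0.0053 and 0.0041), followed by the assembly chaperone POMP at 0.48. PSMB9 went from 9.51, 9.66 and 9.48 to 10.38, 10.69 and 10.17. With the hybridization controls set equal the list median was 0.22. Of the 5 that rose only PSMB9 then passed (0.57, limma adjusted p = 0.0065). PSMB8, PSMB10, POMP and PSME3 did not (limma adjusted p = 0.139, 0.076, 0.207 and 0.587). PSME3, a proteasome activator subunit named after its values were seen, was at 0.38 as deposited on an x_at probe set. Its 4 probe sets ran from -0.33 to 0.44.

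Of 11 genes of peptide trimming and class I folding, 3 rose and 1 fell, against 14.0% and 13.2% of all genes, with a median of 0.14. The aminopeptidase ERAP2 was at 0.87, the tapasin-related editor TAPBPL at 0.60 and the chaperone HSPA5 (BiP) at 0.58 (limma adjusted p = 0.0034, 0.010 and 0.0013). With the hybridization controls set equal TAPBPL and HSPA5 did not pass (0.30 and 0.29, limma adjusted p = 0.133 and 0.078), and the other HSPA5 probe set was at -0.0098 as deposited. UGGT1, which tests the folding of glycoproteins, fell from 7.982, 7.996 and 7.919 to 6.334, 6.210 and 7.065, a log2 difference of -1.43, and its other probe sets reached up to -0.14 (limma adjusted p of the brightest = 0.00024). The folding helpers CALR, PDIA3 and CANX of this list did not pass, at 0.09, 0.14 and -0.23, and are named here after their values were seen. With the hybridization controls set equal CANX was called lower (-0.52, limma adjusted p = 0.0016), and the list median was -0.15.

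Of 9 other class I and class I-like genes, 4 rose and 0 fell (1 was lower at an unadjusted p under 0.05), with a median of 0.26, which became -0.03 after scaling on the hybridization controls. HLA-G and the pseudogene HLA-J were both at 0.65, on x_at probe sets that may share signal with the classical genes. The stress-induced NKG2D ligands MICA and MICB were at 0.46 and 0.37 (limma adjusted p = 0.0028 and 0.0097). None of these 4 passed after that scaling (limma adjusted p = 0.086 to 0.601).

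Among 16 transcription factors and repressors of class I genes, 6 rose and 1 fell, against 14.0% and 13.2% of all genes, with a median of 0.21 (-0.09 after scaling on the hybridization controls). IRF1, an activator that binds ISRE elements, read 6.37, 6.49 and 6.31 in the empty vector arrays and 7.949, 8.186 and 7.996 in the USP48-labelled arrays, 1.65 higher on average (SE 0.10, adjusted p = 2.3e-06 by limma). IRF9, the DNA-binding subunit of the interferon-activated complex ISGF3, was at 1.23 and IRF2 at 0.77 (limma adjusted p = 0.00011 and 0.00029). IRF1, IRF9 and IRF2 also passed with the hybridization controls set equal. CREB1, NFKB1 and RELA, the others that rose, did not (limma adjusted p = 0.223, 0.681 and 0.690) and are named after their values were seen. The 7 probe sets of CREB1 ran from -0.50 to 0.50. SUZ12, a subunit of the repressive PRC2 complex, fell by 0.83 (limma adjusted p = 0.00033), with other probe sets of it reaching up to 0.13. The X box proteins RFX5, RFXAP and RFXANK, named after their values were seen, were at 0.25, 0.10 and -0.01 by their brightest probe sets and did not pass. Other probe sets reached 0.70 for RFX5 and -0.43 for RFXAP.

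Of 7 genes that act on class I molecules at or on the way to the surface, 0 rose and 1 fell (1 higher and 2 lower at an unadjusted p under 0.05), near the 13.2% of all genes called lower, with a median of -0.09 (-0.39 after scaling on the hybridization controls). The 1 that fell was the intramembrane protease SPPL3, at -0.53 (limma adjusted p = 0.0013), whose 7 probe sets reached up to 0.19. Of 13 class II presentation genes, 3 rose and 1 fell, against 14.0% and 13.2% of all genes, with a median of 0.10 (-0.19 after that scaling). They were the lysosomal protease CTSS at 1.52, HLA-DOB at 1.09, HLA-DQB1 at 0.32 and HLA-DMA at -0.56 (limma adjusted p = 0.0021, 0.0017, 0.032 and 0.0055). HLA-DOB rose in 1 of its probe sets, while the other was at 0.15, and HLA-DQB1 did not pass with the hybridization controls set equal (0.028, limma adjusted p = 0.859). CIITA, the class II counterpart of NLRC5, was at 0.22 and did not pass (limma adjusted p = 0.088). It is named after its value was seen.

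**Figure D4:**
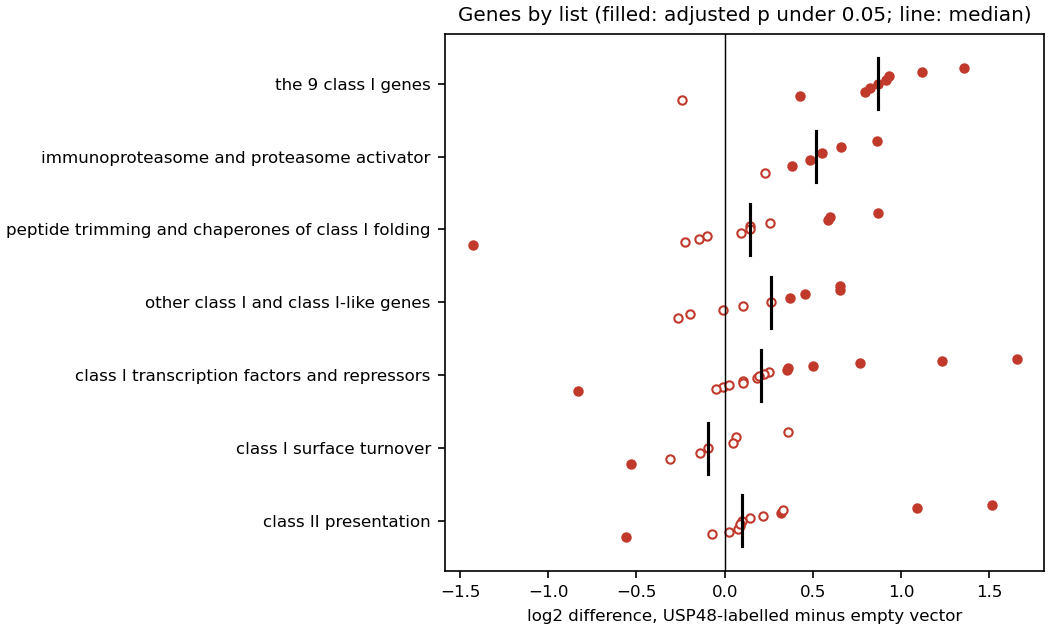
Log2 difference of each measured gene, USP48-labelled minus empty vector arrays, by its brightest probe set, for the 9 class I genes and 6 lists of related genes. Medians (lines) run from 0.87 for the 9 genes and 0.52 for the immunoproteasome list down to -0.09 for the surface turnover list.

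TAP1 and TAP2 lie in the class II region of the MHC, interleaved with the immunoproteasome genes. The order of protein-coding genes in the RefSeq table is HLA-DOB, TAP2, PSMB8, TAP1, PSMB9, HLA-DMB, HLA-DMA. The first 5 rose, from 0.55 for PSMB8 to 1.36 for TAP1. HLA-DMB read 4.96, 4.86 and 4.91 against 5.02, 4.96 and 5.01, a difference of 0.09 that did not pass (limma adjusted p = 0.531), and is named after its value was seen. HLA-DMA, which edits the peptides of class II, fell from 5.43, 5.42 and 5.18 to 4.58, 4.94 and 4.84.

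**Figure D5:**
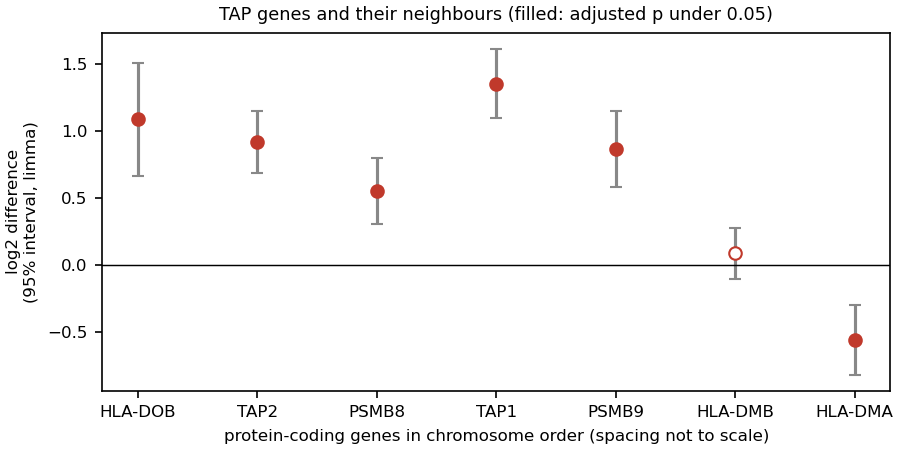
Log2 difference, USP48-labelled minus empty vector arrays, with its 95% interval from limma, for the brightest probe sets of 7 protein-coding genes that follow each other along chromosome 6. The 5 genes from HLA-DOB to PSMB9 lie above 0 and HLA-DMA, 2 genes further on, lies below.

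Leukocytes also express class I genes strongly. Of 11 leukocyte markers, 0 were called higher and 0 lower (limma), against 14.0% and 13.2% of all genes. At an unadjusted p under 0.05, 3 were higher and 0 lower. PTPRC (CD45) read 1.82, 1.97 and 2.11 in the empty vector arrays and 1.80, 1.91 and 1.94 in the USP48-labelled arrays, below the median of every array, and 6 of the 11 markers had both group means there. Their log2 values summed to 37.1 to 38.7 in the empty vector arrays and 38.6 to 39.5 in the USP48-labelled arrays, and their part in the results was not tested. Of the other markers, 2 of 4 epithelial, 2 of 2 mesenchymal and 1 of 3 endothelial genes were called lower, against 13.2% of all genes. In these lists 0 were higher (0 also at an unadjusted p under 0.05). Of 7 hepatocyte markers, 0 were called higher and 0 lower (1 higher and 0 lower at an unadjusted p under 0.05).

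The pattern most like that of the 9 genes over the 6 arrays was sought among 9777 other genes above the median brightness. Pearson correlations with the mean of the 9 were highest for BSDC1 and ZNF416 (both 0.999), APOL1 (0.999), CMTR1 (0.998) and TMEM39A (0.998), with log2 differences of 0.60, 0.70, 1.57, 0.75 and 0.46. Of all genes considered, 16.0% had a correlation over 0.9. Within the family the correlation with that mean was 0.95 for B2M, 0.987 to 0.997 for NLRC5, HLA-B, HLA-C, HLA-E, HLA-F, TAP1 and TAP2, and -0.78 for TAPBP, each being part of the mean.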

How the data were processed

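Expression was measured on 6 Affymetrix arrays. The values deposited by the authors are on a log2 scale, 1 per probe set and array, and the submitters' processing notes name RMA, whose settings the sources used here leave out. RMA usually includes quantile normalization, which sets the overall signal of arrays alike, so a shift of all genes together would not be seen. No column was left unused (0). Of 54675 probe sets, 62 controls were left out and 54613 tested. Symbols came from the platform annotation (41091 probe sets with 1 symbol, 41037 matched in RefSeq, 0 changed).

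The 2 groups were tested by lmFit and eBayes of limma 3.58.1, run in R 4.3.3 (two-sided, Benjamini-Hochberg over all tested probe sets), without a filter. A gene of a list was read from the probe set with the highest mean. Named were all 9 genes, up to 4 called genes per list with the largest absolute difference, IRF1, 3 immunoproteasome subunits and 1 gene not analysed here, and the 5 genes most like the mean of the 9. Members, lists and alternatives were chosen with earlier results of these data known. Alternatives were other scalings, priors, filters, a mean over the probe sets of a gene, p adjusted over genes, thresholds, a replicate block and each array left out. The fit was tested on simulated data. The number of arrays limits the precision. Figures were drawn with matplotlib 3.10.9.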

Additional observations from a re-analysis of the deposited data

How the results depend on the processing

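The 8 called genes of the 9 were also called after quantile normalization or median centring, with a robust prior that follows intensity, without the dimmest 33.3% of probe sets, with either other gene summary and with any 1 array left out. They were 7, without B2M, after scaling on the hybridization controls and at a limit of 1.5-fold. HLA-C kept its call under that scaling only by 216526_x_at, which was not its brightest probe set in the empty vector arrays alone. After scaling on the hybridization controls 23118 instead of 13287 probe sets were called over the array, 12 instead of 20 of the 25 were higher and 1 was lower, their median was 0.49 instead of 0.78, and the lists had 7 genes higher and 14 lower instead of 21 and 4. That scaling lowers every log2 difference by 0.29. It turned TAP2 225973_at, 204770_at and 208428_at to -0.19, -0.068 and -0.071 and TAPBP 1555565_s_at to -0.080, none of them past the threshold. The mean of all probe sets put TAPBP at 0.14, where its brightest was at -0.24. Why the hybridization controls differed between the groups was not tested. Called probe sets were 8356 at an adjusted p under 0.01 and 5899 at 1.5-fold, where the lists had 11 genes higher and 2 lower. With 1 array left out, the median of the 25 ran from 0.55 to 0.94, the higher among them from 18 to 20, and the calls over the array from 10101 to 12594. HLA-B 208729_x_at lost its call without USP48-labelled replicate 1 or empty vector replicate 1 or 3 (limma adjusted p = 0.055 to 0.064).

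Arrays with the same replicate number showed little shared deviation over all probe sets (r of deviations from the group mean = -0.02, 0.11 and -0.02). For arrays of unlike number r ran from -0.08 to 0.10. With 3 arrays a group this cannot settle whether arrays of 1 number share a culture or batch. With the replicate number as a block 12702 probe sets were called, 19 of the 25 higher, with B2M 232311_at lost (adjusted p = 0.061), and 8 genes.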
